A study of Mus musculus with 8 samples.

Results

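Toll-like receptors are transmembrane proteins that recognize microbial products, and in some settings molecules released by damaged cells, and pass the signal to the NF-κB and interferon regulatory transcription factors. Tlr1, Tlr2, Tlr4, Tlr5 and Tlr6 sit at the plasma membrane, where they bind lipoproteins, lipopolysaccharide and flagellin, and Tlr3, Tlr7, Tlr8 and Tlr9 sit in endosomes, where they bind nucleic acids. Myd88 is the cytoplasmic adaptor that every one of these receptors except Tlr3 uses, and it also serves the receptors of the IL-1 family. In the heart, macrophages are a major site of their expression, and cardiomyocytes, endothelial cells and fibroblasts carry some of them as well.

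The 10 genes described here, Tlr1 to Tlr9 and Myd88, were chosen by gene family, at a time when the results of these arrays were known, among them the difference of Tlr9 between genotypes. The WT against SIRT1 KO values of the members are therefore given as a description: no p is given for a member, and where the fit over all probes called one, this is stated without support being drawn from it. Every non-control probe whose accession maps to one of these genes was kept, which gave 10 of the 41174 probes of the array. They belong to 9 genes, since no probe was matched to Tlr5. Tlr3 has 2 probes and the other 8 genes have 1 each.

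Total RNA came from whole mouse hearts taken at E18.5, late in gestation, from 4 WT embryos and 4 embryos with the SIRT1 KO genotype, with a separate array for each heart. The strain is C57BL/6 in the labels and C57BL/6J in the study's methods, all mice were kept on chow without treatment, and the knockout is a whole-body germ-line deletion of Sirt1, which encodes an NAD-dependent protein deacetylase, so that the deletion is not restricted to the heart or to any of its cell types. Each heart was measured from 500 ng of total RNA on a 1-color Agilent whole mouse genome array. Expression is given as log2 signal, which is log2 of the background-subtracted spot intensity minus the 75th percentile of the array, so that 0 is the 75th percentile and negative values are dimmer. Levels of different probes are not compared with each other, because probes differ in how well they hybridize.

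A probe was tested when its signal stood well above background in 4 or more of the 8 hearts, which held for 25615 probes, and it was called when its Benjamini-Hochberg adjusted p from limma was under 0.05. This gave 1250 called probes, 4.88% of those tested, with 3.97% called higher and 0.91% called lower in SIRT1 KO. The share of the calls that were higher was 81.4% and depended on the scaling, with 63.9% after quantile normalization, 38.1% after median scaling and 10.1% without scaling. The 75th percentile that was subtracted was 939 to 1033 intensity units for WT and 777 to 906 for SIRT1 KO. All WT arrays are on slide 1 and all SIRT1 KO arrays on slide 2, each slide with its own scan day, and an effect of the slide cannot be told apart from one of the genotype. On probe A_52_P358612 Sirt1 itself was higher in the hearts labelled SIRT1 KO, at 0.58 ± 0.14 against 0.04 ± 0.19 in WT (log2 signal, SD, n = 4 each), a difference of 0.54 (SE 0.11, adjusted p = 0.0323 from limma). Dropping each heart in turn left it between 0.47 and 0.63, past the threshold in 2 of 8 cases (without WT heart 2 and without SIRT1 KO heart 3). It was also not called with median scaling, without scaling, without the filter on dim probes, with the methods' analysis of variance, with a replicate block or without SIRT1 KO hearts 1 and 4. On its other probe, A_51_P141152, the difference was -0.11 (SE 0.11, adjusted p = 0.589). Where these probes lie relative to the deletion was not analysed here, so genotypes are those of the labels.

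The start-site regions of 3 members are shown first, those of Tlr9, of Tlr3, which has 2 probes that gave differences of unlike size, and that of the shared adaptor Myd88. Each is the stretch of 250 bases just before the annotated transcript start in RefSeq, on GRCm38.p6, written 5′ to 3′ along the gene's own strand, with motif matches in capitals. Tlr9 is at chr9:106222348-106222597 on the plus strand, Tlr3 at chr8:45410381-45410630 on the minus strand and Myd88 at chr9:119340019-119340268 on the minus strand.
Tlr9: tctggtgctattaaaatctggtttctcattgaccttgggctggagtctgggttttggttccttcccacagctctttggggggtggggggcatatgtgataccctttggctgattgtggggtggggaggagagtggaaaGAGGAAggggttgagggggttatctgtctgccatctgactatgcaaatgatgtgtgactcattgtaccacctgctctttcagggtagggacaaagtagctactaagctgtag
Tlr3: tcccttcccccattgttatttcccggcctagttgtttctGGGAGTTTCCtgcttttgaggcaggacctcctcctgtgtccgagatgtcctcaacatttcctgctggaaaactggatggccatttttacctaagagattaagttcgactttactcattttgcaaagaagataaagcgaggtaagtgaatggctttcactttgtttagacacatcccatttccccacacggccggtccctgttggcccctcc
Myd88: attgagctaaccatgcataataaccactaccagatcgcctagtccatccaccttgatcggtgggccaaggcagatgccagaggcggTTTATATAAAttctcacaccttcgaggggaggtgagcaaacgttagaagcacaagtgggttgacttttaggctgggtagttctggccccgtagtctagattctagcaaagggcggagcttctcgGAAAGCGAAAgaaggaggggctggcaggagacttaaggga

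The motifs searched, on both strands, were the κB motif GGGNNTTTCC, the interferon-stimulated response element GAAANNGAAA, the TATA motif TATAAA and the ETS-type motif GAGGAA. They occur in 1.41%, 2.98%, 12.4% and 23.3% of 32851 such windows. The shorter ETS core GGAA was not searched. In the Tlr9 window the capitals mark the ETS-type motif 112 bases before the start, and no other of the motifs matched. In the Tlr3 window they mark a κB match 211 bases before the start. In the Myd88 window they mark an interferon-stimulated response element 40 bases before the start, and overlapping TATA matches on opposite strands 160 and 164 bases before it. The Tlr9 window holds 0 CpG dinucleotides, that of Tlr3 holds 6 and that of Myd88 holds 9, where the median over all windows is 6. Their GC contents of 50.4%, 48% and 51.2% were near the median of 52.4%. A window was found for 8 of the 10 genes. A match describes letters in the window and not a bound site.

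Of the 10 member probes 7 were well above background on all 8 arrays, 9 were tested, and Tlr8 was at background in every heart. Of the 9 tested probes 3 were higher and 6 were lower in the hearts labelled SIRT1 KO, and the median log2 difference was -0.02, where the median over all 25615 tested probes was 0.01. A call was made for 2 of the 9, against the 4.88% of all probes: Tlr9, which was higher, and the dimmer Tlr3 probe, which was lower. These are also the 2 tested member probes in which the genotypes did not overlap, where 13.7% of all tested probes did not. Since the family was proposed with this comparison known, nothing is read from these counts.

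**Figure D1:**
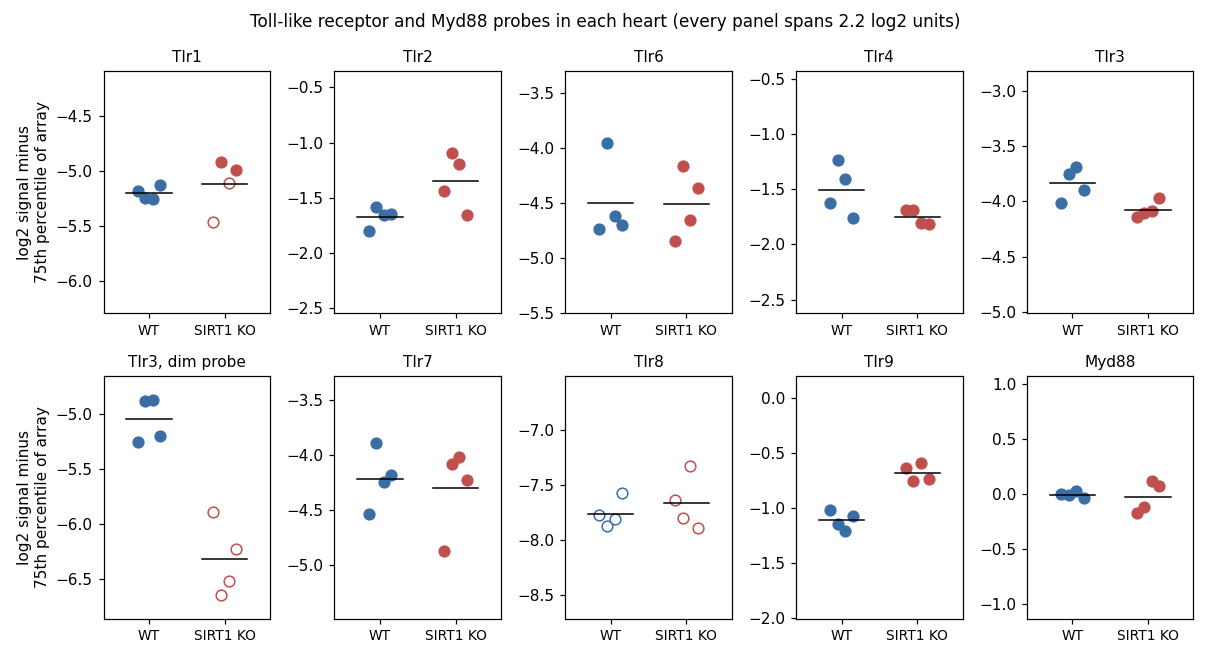
Log2 signal minus the array's 75th percentile (vertical axis) of each member probe in each heart, WT in blue and SIRT1 KO in red, with 1 panel per probe and the same span in every panel. Filled circles are hearts in which the probe was well above background, open circles those in which it was not, and lines are genotype means. The genotypes are apart for Tlr9 and the dimmer Tlr3 probe and overlap in the other panels, and every Tlr8 circle is open.

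Among the plasma membrane receptors, Tlr2, which pairs with Tlr1 or Tlr6 to bind bacterial lipoproteins, was measured by a probe that is printed as 10 spots on each array. Its log2 signal was -1.80, -1.59, -1.66 and -1.65 in WT hearts 1 to 4 and -1.44, -1.10, -1.20 and -1.66 in the hearts labelled SIRT1 KO 1 to 4. The first 3 SIRT1 KO hearts lay above every WT heart, and the fourth lay within the WT range. The means were -1.67 ± 0.09 and -1.35 ± 0.25 (SD, n = 4 each), a log2 difference of 0.32 (SE 0.12). The spots of the probe had an SD between 0.06 and 0.09 within an array, and the standard error of their mean was at most 0.03. The SD between hearts was larger than this standard error in both genotypes. Tlr2 was not called, and its difference was 0.19 with median scaling and 0.10 without scaling. It was 0.53, and called, when SIRT1 KO hearts 1 and 4 were left out, a choice made after the data were seen.

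Tlr4, the lipopolysaccharide receptor, is also printed as 10 spots. Its log2 signal was -1.63, -1.23, -1.40 and -1.76 in the WT hearts and -1.69, -1.69, -1.81 and -1.82 in the SIRT1 KO hearts. WT hearts 1, 2 and 3 lay above every SIRT1 KO heart, and WT heart 4 lay among them. The means were -1.51 ± 0.23 and -1.75 ± 0.07 (SD, n = 4 each), a log2 difference of -0.25 (SE 0.12), and without WT heart 2 it was -0.15. Tlr4 was not called except without scaling between arrays, where its difference was -0.47 and the median over all tested probes was -0.21. The spots of Tlr4 had an SD of at most 0.09 within an array.

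**Figure D2:**
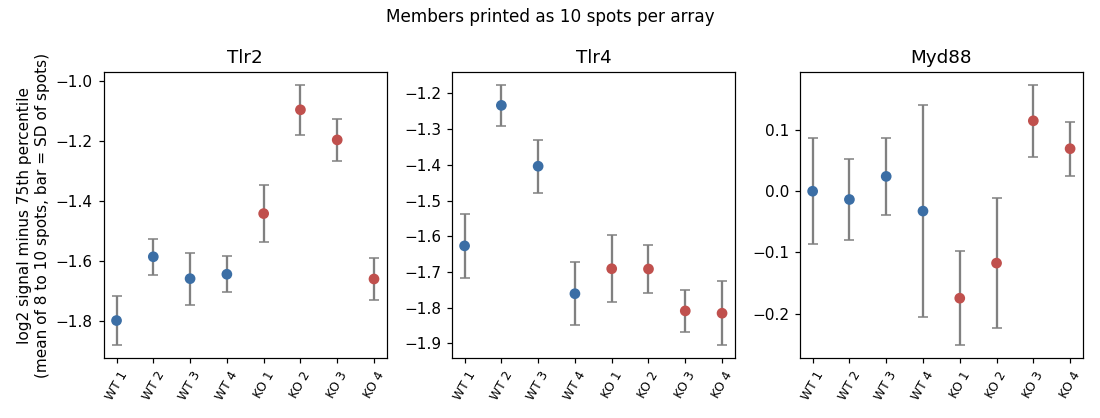
Log2 signal minus the 75th percentile (vertical axis) of Tlr2, Tlr4 and Myd88 on each array (horizontal axis), WT in blue and SIRT1 KO in red. Circles are means over the 8 to 10 spots used and bars are the SD of the spots; SIRT1 KO heart 4 lies at -1.66 in the Tlr2 panel, within the WT values, and WT heart 4 lies at -1.76 in the Tlr4 panel, among the SIRT1 KO values.

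Tlr1 and Tlr6, the partners of Tlr2, were measured on 1 spot per array near the dim end of the scale. Tlr1 ranged from -5.26 to -5.13 in WT hearts and from -5.46 to -4.92 in SIRT1 KO hearts, and its signal cleared the background on every WT array and on 2 arrays of SIRT1 KO hearts. Its log2 difference was 0.08 (SE 0.12), which fell to -0.15 after quantile normalization and -0.14 without scaling, so that no direction is given. Tlr6 was -4.74, -3.96, -4.62 and -4.70 in WT hearts and -4.84, -4.17, -4.65 and -4.36 in SIRT1 KO hearts. WT heart 2 was the highest of the 8, and the genotype means of -4.50 ± 0.37 and -4.51 ± 0.30 (SD, n = 4 each) differed by 0.00 (SE 0.20). The difference was 0.18 without WT heart 2 and -0.12 without SIRT1 KO heart 2, so that no direction is given. Tlr6 overlaps Fam114a1 on chromosome 5, and the strand of the probes was not analysed here, so the Tlr6 value is uncertain to that extent.

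Among the endosomal receptors, Tlr9, which binds DNA with unmethylated CpG motifs and is known for its expression in B cells and plasmacytoid dendritic cells, was higher in the hearts labelled SIRT1 KO. Its log2 signal was -1.02, -1.15, -1.21 and -1.07 in WT hearts 1 to 4 and -0.64, -0.76, -0.60 and -0.74 in SIRT1 KO hearts 1 to 4. Every SIRT1 KO heart lay above every WT heart. The means were -1.11 ± 0.09 and -0.68 ± 0.08 (SD, n = 4 each), a log2 difference of 0.43 (SE 0.08), or 1.35-fold. Before scaling the spot intensity was 437 to 505 units in WT hearts and 514 to 583 units in SIRT1 KO hearts, and the nearest hearts of the genotypes, at 505 and 514 units, were closer than the error of a spot given next.

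The Tlr9 probe has 1 spot per array, with an error of about 10% of the signal from Feature Extraction's error model. Over the 18 alternative settings its log2 difference ran from 0.21 to 0.46. It was not called with median scaling (0.30), without scaling (0.21), without WT heart 3 (0.40) and without SIRT1 KO hearts 1 and 4 (0.44). The median over all tested probes was -0.12 with median scaling and -0.21 without scaling.

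Tlr3, the receptor for double-stranded RNA, signals through Ticam1 and not through Myd88, and its 2 probes gave differences of unlike size. On the brighter probe, A_51_P291906, the log2 signal was -4.01, -3.75, -3.68 and -3.90 in WT hearts and -4.15, -4.10, -4.09 and -3.97 in SIRT1 KO hearts. WT heart 1 lay within the SIRT1 KO range, and the other WT hearts lay above it. The log2 difference was -0.24 (SE 0.09), and it was not called. It was -0.39 after quantile normalization, -0.37 with median scaling, -0.46 and called without scaling, and 0.02 with normexp background correction of the unsubtracted intensities. The normexp setting adds 50 units to every spot, which shrinks the log2 differences of dim probes.

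On the dimmer Tlr3 probe, A_52_P85174, the log2 signal was -5.25, -4.88, -4.87 and -5.19 in WT hearts and -5.89, -6.64, -6.52 and -6.23 in SIRT1 KO hearts. It cleared the background on all 4 WT arrays and on 0 arrays of SIRT1 KO hearts. It therefore passed the filter through the WT arrays only, and its level in the SIRT1 KO hearts is uncertain. Against each array's lowest signal well above background, WT was 1.5-fold higher. This is not a limit, since a probe brighter than that signal can still be at background. Tlr1 was so in SIRT1 KO heart 3, at -5.12, where the lowest such signal was -5.31. The fitted log2 difference of -1.27 (SE 0.17) rests on SIRT1 KO intensities below those signals. With normexp and its added 50 units the difference was -0.10, not called. Its median spot intensity before subtraction was 81.5 to 94 units in WT and 61 to 73 units in SIRT1 KO hearts, over a local background of 45 to 56 units. The SIRT1 KO values therefore rest on 13 to 28 units over the local background, with spot errors of 26.6% to 46.9%.

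**Figure D3:**
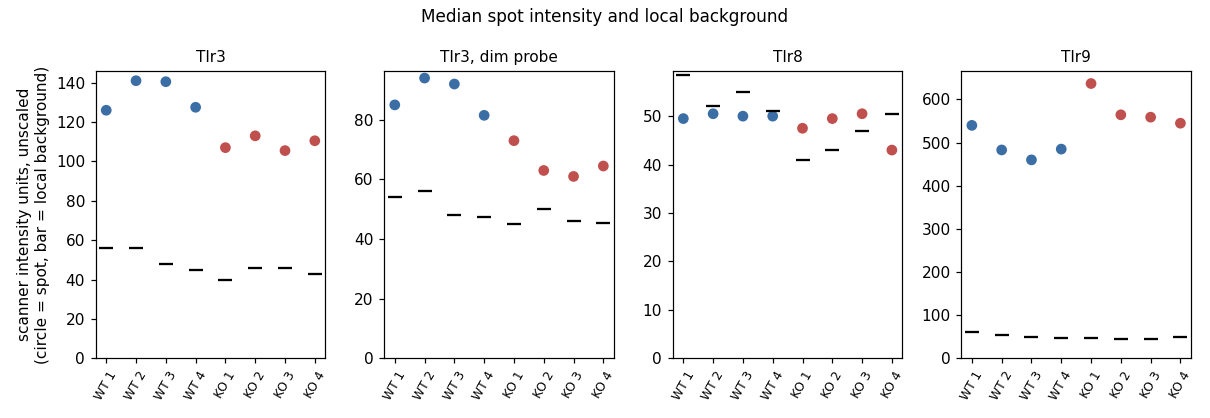
Median spot intensity before background subtraction (circles, WT in blue and SIRT1 KO in red) and local background (bars) on each array, in unscaled scanner units, for the 2 Tlr3 probes, Tlr8 and Tlr9. The dimmer Tlr3 probe lies between 61 and 94 units over a background of 45 to 56, Tlr8 lies at its background, and Tlr9 lies at 460 to 540 in WT and 545 to 637 in SIRT1 KO hearts.

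Tlr7 and Tlr8, receptors for single-stranded RNA, are neighbours on the X chromosome. Tlr7 was -4.54, -3.90, -4.25 and -4.18 in WT hearts and -4.88, -4.08, -4.02 and -4.23 in SIRT1 KO hearts. The probe has 1 spot per array, near the dim end of the scale. The genotypes overlapped, and the log2 difference was -0.08 (SE 0.20), with SIRT1 KO heart 1 the lowest of the 8. Without that heart the difference was 0.11. It was -0.25 after quantile normalization and 0.15 with normexp, so that no direction is given. Tlr8 stayed at background throughout, with a median spot intensity of 43 to 50.5 units over a local background of 41 to 58.5 units, so no level or difference is given.

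Myd88, the adaptor, was measured on 10 spots per array. Its log2 signal was 0.00, -0.01, 0.02 and -0.03 in WT hearts and -0.17, -0.12, 0.11 and 0.07 in SIRT1 KO hearts. The SIRT1 KO hearts lay on both sides of the WT hearts, 2 below and 2 above all of them. The means were -0.01 ± 0.02 and -0.03 ± 0.14 (SD, n = 4 each), and the log2 difference of -0.02 (SE 0.08) lay within the spread of the SIRT1 KO hearts. Myd88 was called in 0 of 18 alternatives.

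**Figure D4:**
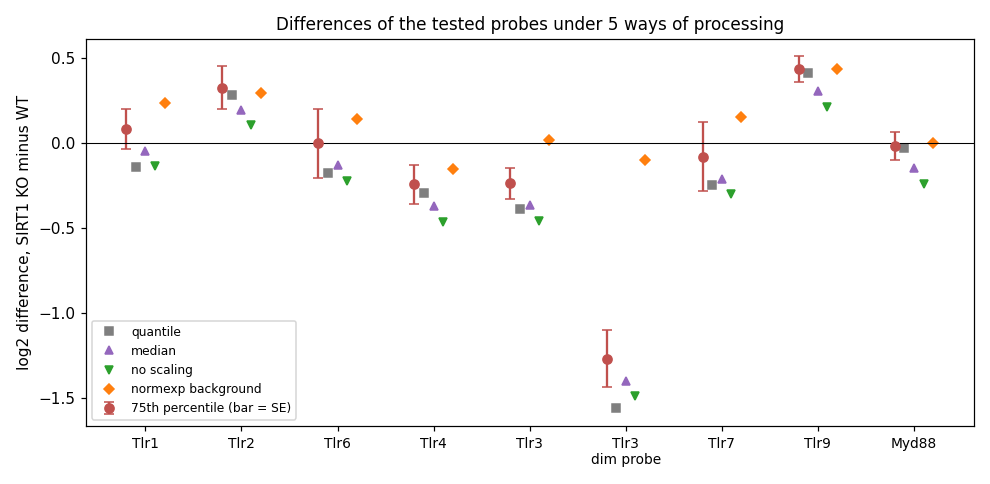
Log2 difference, SIRT1 KO minus WT (vertical axis), of the 9 tested member probes (horizontal axis) under scaling to the 75th percentile, with bars for the standard error, and under quantile normalization, median scaling, no scaling and normexp background correction. Tlr9 and Tlr2 stay above 0 and Tlr4 stays below it under all 5, and the dimmer Tlr3 probe moves from -1.27 to -0.10 with normexp. Normexp adds 50 units to every spot, which shrinks the differences of dim probes.

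These are whole hearts, in which fewer cells of a type and less RNA per cell cannot be told apart. Marker genes of 10 cell types or tissues were summed as linear signal in multiples of the 75th percentile. The 12 macrophage markers, among them Csf1r, Adgre1 and C1qa, were all well above background on every array, and their sum was 5.62, 8.58, 6.52 and 6.96 in WT hearts and 5.50, 7.38, 9.09 and 6.98 in SIRT1 KO hearts. These sums, in which the brightest markers weigh most, overlapped between the genotypes, and 0 of the 12 were called. Of the single markers 7 were higher and 5 lower in SIRT1 KO. Cd68 had a log2 difference of 0.64 (SE 0.22), without overlap, and Mrc1 had -0.41 (SE 0.14). Heart by heart, WT heart 2 had the highest macrophage sum and the highest Tlr2, Tlr4, Tlr6 and Tlr7 of the WT hearts, and WT heart 1 had the lowest macrophage sum and the lowest Tlr2, Tlr3, Tlr6 and Tlr7. SIRT1 KO heart 1 had the lowest sum and the lowest Tlr1, Tlr6, Tlr7 and Myd88 of its group, and SIRT1 KO heart 3, with the highest sum, had the highest Tlr7, Myd88 and Tlr9. Other values did not follow this order. SIRT1 KO heart 1 had the highest Tlr4 of its group, at -1.69, and SIRT1 KO heart 3 had -1.81, among the lowest. The lowest Tlr2 of the SIRT1 KO hearts was in heart 4, and the highest Tlr9 of the WT hearts was in heart 1. The part of macrophages in these values was not tested.

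Beside Tlr9, the 6 B cell markers summed to between 0.304 and 0.434 in WT and between 0.391 and 0.528 in SIRT1 KO hearts, and 0 of the 4 tested were called. Of these markers Cd79a and Pax5 were at background on all arrays. Of the plasmacytoid dendritic cell markers, Siglech, Ccr9 and Klk1 were at background on all arrays, and the fourth, Cox6a2, is also a heart muscle gene. Of the T cell and thymus markers Cd3g and Cd4, of the neutrophil markers Elane, and of the lung markers Sftpb, Sftpa1 and Nkx2-1 were at background everywhere. The T cell sum was between 0.057 and 0.185 in WT and between 0.101 and 0.119 in SIRT1 KO hearts, and the lung sum between 0.024 and 0.090 and between 0.065 and 0.117. The neutrophil sum was 1.32 in SIRT1 KO heart 1 and between 0.268 and 0.541 in the other hearts. The liver sum was 102 in SIRT1 KO heart 1 and 53.2 in SIRT1 KO heart 4, and at most 24.1 in the other 6. Without these 2 hearts the Tlr9 difference was 0.44, not called.

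The labelled tissue was checked with 8 cardiomyocyte markers, which were well above background on all 8 arrays. Their sum ran from 1408 to 1527 in WT and from 1392 to 1659 in SIRT1 KO hearts. The 6 fibroblast markers summed to between 210 and 244 in WT and between 192 and 242 in SIRT1 KO hearts. All 6 endothelial markers had negative differences, of which that of Tie1, -0.03, turned to 0.01 with normexp, to 0.02 without WT heart 4 and to 0.01 without SIRT1 KO heart 1, with a median log2 difference of -0.12 and sums of 37.3 to 43.1 in WT and 32.9 to 39.6 in SIRT1 KO hearts. Of the cardiomyocyte, fibroblast and endothelial markers 0 were called. Without scaling Tek (-0.47), Kdr (-0.41) and Pecam1 (-0.34) were called lower, and Cdh5, Tie1 and Emcn were not. The median over all tested probes was -0.21 in that setting.

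The question of whether genes that act with these receptors differed between the genotypes was addressed with 8 lists of 110 genes, 1 tested probe per gene. Of these genes 102 had a probe and 83 were tested, and 0 were called, against the 4.88% of all probes; 15 had an unadjusted p under 0.05, as 5504 of all 25615 probes did. The methods' analysis of variance also called 0, with 11 at an unadjusted p under 0.05. Several other settings called more, among them quantile normalization with 2, median scaling with 4 and no scaling with 15. In direction 43 were higher and 40 lower in SIRT1 KO, with a median log2 difference of 0.01, which was -0.11 with median scaling and -0.20 without scaling, and in 9 of the 82 with a value on every array the genotypes did not overlap, where 13.7% of all probes did not.

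Of the co-receptors and chaperones 9 of 11 were tested, with a median log2 difference of 0.05. The smallest p was that of Cd36, a lipid scavenger receptor that acts with Tlr2, with a difference of -0.15 (SE 0.07, adjusted p = 0.236). Of the adaptors and kinases of the Myddosome, the complex that forms on Myd88, 9 of 11 were tested, with a median of 0.06. The smallest p was that of Tirap, which bridges Tlr2 and Tlr4 to Myd88. Tirap was -0.86, -0.92, -0.96 and -1.06 in WT hearts and -1.36, -1.22, -1.11 and -1.33 in SIRT1 KO hearts, without overlap, a difference of -0.30 (SE 0.08, adjusted p = 0.0747). It passed with median scaling, without scaling, with array weights and without SIRT1 KO heart 3. For Tlr11, Tlr12 and Tlr13, the other mouse receptors, no probe was matched.

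Of the kinases and transcription factors downstream 23 of 27 were tested, 16 higher and 7 lower, with a median of 0.04. Ikbke, an IκB kinase-like kinase of the interferon branch, had the smallest p, with a difference of 0.43 (SE 0.12, adjusted p = 0.0737), with 3 of the 4 WT hearts above background. All 14 inhibitors were tested, with a median of 0.02, and the smallest p was that of Nfkbie, an IκB protein that holds NF-κB in the cytoplasm. Nfkbie was -2.40, -2.39, -2.32 and -2.22 in WT hearts and -2.15, -1.78, -2.04 and -1.92 in SIRT1 KO hearts, without overlap, a difference of 0.36 (SE 0.09, adjusted p = 0.0671), and it passed with array weights.

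Of the IL-1 family genes whose signals share Myd88 6 of 10 were tested, 1 higher and 5 lower, with a median of -0.22. Il18r1, the receptor chain for interleukin-18, had the smallest p. Its log2 signal was -2.91, -2.28, -2.63 and -2.59 in WT hearts and -3.43, -2.92, -3.51 and -3.97 in SIRT1 KO hearts, and SIRT1 KO heart 2 lay next to WT heart 1 without overlap. The difference was -0.85 (SE 0.21, adjusted p = 0.0573).

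Of the endogenous ligands 8 of 9 were tested, with a median of -0.05. Fn1, the matrix glycoprotein fibronectin, had the smallest p, with a difference of -0.38 (SE 0.12, adjusted p = 0.104); a dimmer Fn1 probe, A_52_P11817, had -0.47 (adjusted p = 0.0442) and passed, as it did in 2 of 8 cases when hearts were dropped in turn and not without the filter on dim probes or with the methods' analysis of variance. The brighter Fn1 probe passed with median scaling, without scaling and with normexp. Of the target genes 14 of 25 were tested, 4 higher and 10 lower, with a median of -0.17. Il6, the inflammatory cytokine, had the smallest p, with -4.82, -4.09, -4.60 and -4.58 in WT hearts and -6.18, -4.97, -5.40 and -5.72 in SIRT1 KO hearts. The difference was -1.04 (SE 0.25, adjusted p = 0.051), and Il6 cleared the background in 1 of the SIRT1 KO hearts. Both Il18r1 and Il6 passed the threshold without SIRT1 KO heart 2, without scaling, with median scaling, after quantile normalization and with a replicate block. Il18r1 also passed with the filter on all 8 arrays.

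**Figure D5:**
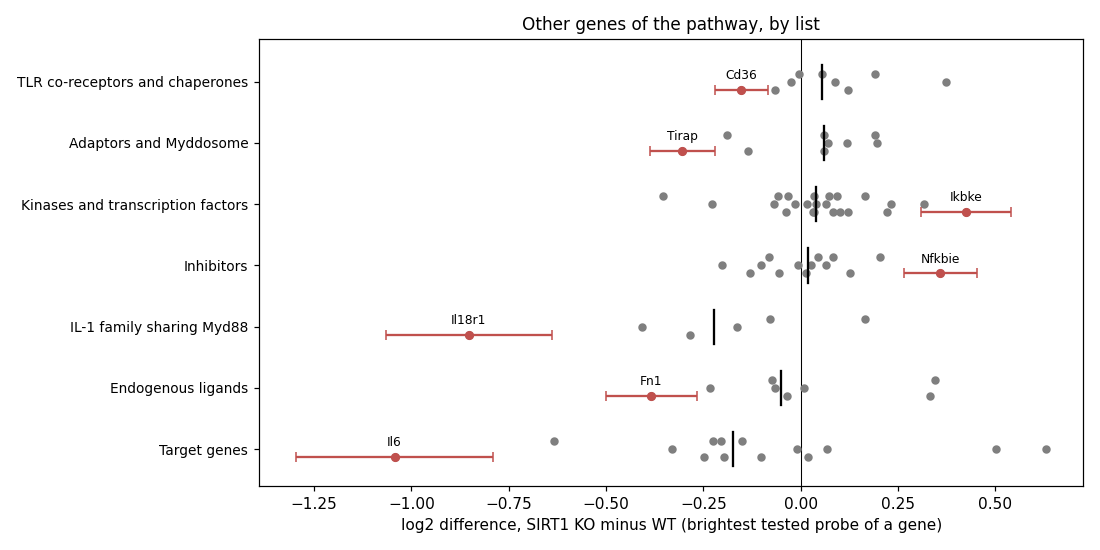
Log2 difference, SIRT1 KO minus WT (horizontal axis), of the 83 tested genes of the other pathway lists, 1 point per gene and 1 row per list. Black bars are list medians, and the gene with the smallest p of each list is red with its standard error. The differences lie on both sides of 0 in every list, and none of the 83 was called.

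The genes whose values over the 8 arrays were most like those of Tlr9, among 13560 genes, were Sycn with a Pearson r of 0.999, Opn5 with 0.995 and Slc35g3 with 0.986. Their log2 differences were 1.12, 0.49 and 0.76, higher in SIRT1 KO like that of Tlr9, a direction that follows from how they were picked. With normexp Sycn had 0.34 and Slc35g3 had 0.37, and without scaling Opn5 had 0.27. For Tlr4 they were Clcn4 with 0.969, Ccdc43 with 0.961 and Gdpd1 with 0.948, and for Myd88 they were 4933401B06Rik with 0.978, Mmadhc with 0.954 and Sf3b2 with 0.948. These r values describe 8 arrays on which genotype and slide coincide and which were scaled in the same way, and they are the highest of many.

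The chromosomal neighbours of the members were read from the RefSeq gene order. Those of Tlr9 on chromosome 9 are Twf2, with a log2 difference of -0.33 (SE 0.09, adjusted p = 0.0716), and Alas1, with -0.11 (SE 0.12, adjusted p = 0.602), both opposite in sign to Tlr9. Those of Myd88, also on chromosome 9, are Oxsr1 with -0.16 (SE 0.08) and Acaa1a with -0.04 (SE 0.09), neither called. Those of Tlr3 are Fam149a with 0.04 (SE 0.11) and Sorbs2 with -0.19 (SE 0.07), and those of Tlr2 are Sfrp2 with 0.31 (SE 0.27) and Tmem131l with 0.16 (SE 0.07), none called. Prps2, next to Tlr7 on the X chromosome, was called lower, with -0.33 (SE 0.08, adjusted p = 0.0444), and the call held in 1 of 8 cases when hearts were dropped in turn, with differences from -0.37 to -0.29. It was also lost with normexp, without the filter on dim probes, with the methods' analysis of variance, with a replicate block and without SIRT1 KO hearts 1 and 4. Tlr1 and Tlr6 lie next to each other on chromosome 5, where Klf3 on the far side of Tlr1 had -0.29 (SE 0.13). Tmsb4x beside Tlr8 had -0.16 (SE 0.10), and Susd4 and Disp1 beside Tlr5 had -0.04 (SE 0.08) and -0.15 (SE 0.11), none of these 4 called. For Astn2 and Brinp1 beside Tlr4, and for Tmem156 beside Tlr6, no probe was tested.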

How the data were processed

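Total RNA of 4 WT and 4 SIRT1 KO embryonic hearts was hybridized to 1-color Agilent arrays. The authors deposited the intensity of every spot as Agilent Feature Extraction wrote it (version 12 per the processing notes, 12.0.0.7 per the file headers), background-subtracted and not scaled between arrays. A deposited table of the series holds the same intensities. Log2 of the processed intensity was taken here, and from it the 75th percentile of that array's non-control probes was taken off; a probe's value is the mean of its spots, outlier spots left out. A log2 difference of dim probes depends on the subtracted background. Accessions were matched to RefSeq names of GRCm38.p6, which named 28223 probes (68.5%); of its gene table the names and the order were used. The printed start-site windows come from a separate RefSeq table of that build, with their coordinates. The share of probes well above background was 59.5% to 64.9% per array, without saturated spots, and precision is limited by there being 4 arrays per genotype.

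Probes that reached well above background on 4 or more arrays were fitted with limma 3.58.1 (lmFit, eBayes) in R 4.3.3 and adjusted after Benjamini-Hochberg at 0.05. For a probe at background in a whole genotype, each array's dimmest well-measured signal, or the probe's own where higher, served as a reference level and not as a limit. The fit was tested on simulated data. Python 3.11.15 was used with pandas 2.3.3, numpy 2.4.6 and, for plots, matplotlib 3.10.9. The members, the gene lists and the rule for named genes were chosen with earlier results of these data known. Named are every member with every probe, Sirt1, of each pathway list the genes past the threshold or else the gene with the smallest p, the marker sums with markers at background, the 3 genes most like Tlr9, Tlr4 and Myd88, and the members' neighbours. A gene outside the members is given by its brightest tested probe. The methods' analysis of variance, with genotype as its only factor, was an alternative, beside scaling, background, filter, array weights, a replicate block and each heart left out. The authors' Ingenuity results and the mouse's sex were not used here. Apart from coming from separate hearts, nothing in the labels says how the embryos relate.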

Additional observations from a re-analysis of the deposited data

Results flagged for a closer look

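Over the 9 tested member probes, the 10 marker sums and the 7 pathway genes with the smallest p of their list, each in both genotypes, 52 groups of 4 hearts were examined for a heart far from the others of its genotype, by the gap to its nearest neighbour divided by the range of the group, against Dixon's critical value for groups of 4. Chance alone exceeds it in about 1 in 20 groups, and 4 groups did. For Tlr6 in WT hearts the ratio was 0.847, since WT heart 2 lay at -3.96 and the other 3 between -4.74 and -4.62 on the log2 scale. For the endothelial marker sum in WT hearts it was 0.875, with 43.1 in WT heart 2 and at most 38.0 in the others. For the neutrophil marker sum in SIRT1 KO hearts it was 0.842, with 1.32 in heart 1 and at most 0.444 in the others. For the plasmacytoid dendritic cell sum in SIRT1 KO hearts it was 0.909, with 268 in heart 3 and at most 232 in the others, and Cox6a2 was the only marker of that list above background.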

How the results depend on the processing

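The count of all called probes, 1250, was 6352 without scaling, 2566 with normexp on the median signal, 546 with the methods' analysis of variance and 2277 with array weights, and with 1 heart left out it ran from 657 (without WT replicate 3) to 1825 (without SIRT1 KO replicate 3), with 658 without WT replicate 2, 728 without SIRT1 KO replicate 1 and 726 without SIRT1 KO replicate 2. Leaving out SIRT1 KO replicates 1 and 4, chosen after seeing the data, gave 646. The member count, 2, was 1 with median scaling, normexp and the filter of well above background on all 8 arrays, and 1 to 2 with 1 heart left out, with the single call without WT replicate 3. It was 3 without scaling. The median over members, -0.02, was -0.24 without scaling, -0.18 after quantile normalization, -0.15 with median scaling, 0.14 with normexp and -0.12 to 0.11 with 1 heart left out (0.11 without SIRT1 KO replicate 1, 0.02 without WT replicate 2), so it has no settled sign. The count of pathway genes, 0, was 2 after quantile normalization, 4 with median scaling, 15 without scaling, 2 with normexp, 1 with the filter on all 8 arrays and 2 with array weights. With 1 heart left out it was 0 to 2: Ccl3 without SIRT1 KO replicate 1, Il18r1 and Il6 without SIRT1 KO replicate 2, and Tirap without SIRT1 KO replicate 3. With a replicate block the counts were 1185 for all probes, 2 for members and 3 for pathway genes (Il18r1, Il6 and Isg15), and the calls of Sirt1 and Prps2 were not made. The labels do not say what hearts of the same number share. Their deviations correlated at 0.204, 0.207, 0.0562 and 0.141, not all over 0.1, though each heart correlated best with its own number, a hint from the data and not the design. The causes of these changes were not tested. Signal over background limits Tlr1, Tlr3, Tlr6, Tlr7 and Tlr8.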
